A study of Mus musculus with 30 samples.

Results

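DNA methylation at 10 genes of the piRNA pathway was examined in sperm of mice that drank cadmium and of mice that did not. The genes were taken by name: Ddx4, Mael, Piwil1, Piwil2, Piwil4, Tdrd1, Tdrd9, Tdrkh, Asz1 and Mov10l1. Their CpGs were those from 2000 bp before to 2000 bp after the RefSeq gene body on GRCm38, with both strands summed and at least 10 reads in every one of 30 libraries. They came to 93 of the 416876 CpGs that met this coverage, and each of the 10 genes had at least 1. The measurement was RRBS, or reduced representation bisulfite sequencing. It sequences the CpG-rich part of genomic DNA after bisulfite treatment and gives, for each CpG, the share of reads that were methylated. Sperm were isolated from both cauda epididymides of male C57BL/6 mice (C57BL/6J in the growth protocol), 15 per group, initially 7 weeks old and, per the labels, 9 weeks post treatment. The cadmium group drank reverse osmosis (RO) water that held 0.9 ppm of cadmium, added as cadmium chloride, at an average dose of 0.68 mg per kg of body weight, and the vehicle group drank RO water. Mice of both groups were housed singly and ate a diet with 10% of its energy from fat.

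Piwi-interacting RNAs (piRNAs) are small RNAs of germ cells that guide PIWI proteins to transposon transcripts and, in fetal male germ cells, direct DNA methylation to transposons. Their precursors are cut and trimmed in germ granules and on the mitochondrial surface, where Tudor proteins bind PIWI proteins through methylated arginines. The genes that encode this machinery are used mainly in germ cells, and the CpG-rich starts of several of them, Ddx4, Mael, Tdrd1 and Asz1 among them, are known to carry DNA methylation in body tissues.

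The RefSeq promoters (GRCm38.p6, 250 bases before to 50 after a transcript start, written 5′ to 3′ on the strand of the gene) of 4 members are printed because the measured CpGs fall within them. Capitals mark the measured CpGs. They are Ddx4 at chr13:112652261-112652560 on the minus strand, Mael at chr1:166238695-166238994 on the minus strand, Tdrkh at chr3:94412994-94413293 on the plus strand and Asz1 at chr6:18109012-18109311 on the minus strand.
Ddx4: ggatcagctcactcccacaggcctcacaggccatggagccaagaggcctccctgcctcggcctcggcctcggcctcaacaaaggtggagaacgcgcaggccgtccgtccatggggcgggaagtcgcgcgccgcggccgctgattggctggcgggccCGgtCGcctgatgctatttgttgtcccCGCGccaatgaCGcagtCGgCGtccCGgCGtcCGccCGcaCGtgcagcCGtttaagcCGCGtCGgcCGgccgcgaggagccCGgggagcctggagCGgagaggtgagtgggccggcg
Mael: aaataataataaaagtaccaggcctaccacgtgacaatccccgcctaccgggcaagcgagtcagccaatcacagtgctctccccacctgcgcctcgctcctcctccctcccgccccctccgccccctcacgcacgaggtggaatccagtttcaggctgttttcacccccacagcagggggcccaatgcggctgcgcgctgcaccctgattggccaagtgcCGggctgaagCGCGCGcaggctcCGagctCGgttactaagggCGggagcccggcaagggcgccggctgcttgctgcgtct
Tdrkh: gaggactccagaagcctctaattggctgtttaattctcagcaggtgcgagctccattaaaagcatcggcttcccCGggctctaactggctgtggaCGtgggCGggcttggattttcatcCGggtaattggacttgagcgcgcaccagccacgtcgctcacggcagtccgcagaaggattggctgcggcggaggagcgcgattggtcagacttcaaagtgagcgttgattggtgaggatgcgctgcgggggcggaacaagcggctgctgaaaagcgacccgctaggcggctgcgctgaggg
Asz1: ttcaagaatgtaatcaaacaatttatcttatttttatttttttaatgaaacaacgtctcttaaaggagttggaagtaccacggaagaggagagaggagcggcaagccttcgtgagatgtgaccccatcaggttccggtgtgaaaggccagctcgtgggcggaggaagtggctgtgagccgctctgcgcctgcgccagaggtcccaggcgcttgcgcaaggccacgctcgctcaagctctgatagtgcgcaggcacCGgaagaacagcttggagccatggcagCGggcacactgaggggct
The Ddx4 promoter held 38 CG pairs, of which 19 were measured, the Mael promoter 24 with 7 measured, the Tdrkh promoter 25 with 4 measured and the Asz1 promoter 17 with 2 measured. The median of the 32851 mouse promoters in the table was 7 CG pairs. All 32 measured CpGs lay on a CG of the printed sequence. In Ddx4 and Mael the measured CpGs lie on both sides of the transcript start, in Asz1 just after it and in Tdrkh before it. Sequence motifs were searched on both strands. TCCCGC, named for the E2F family, was found 1 time in Ddx4 and 2 times in Mael, not in Tdrkh or Asz1, and in 19.98% of all promoters. CACGTG, an E-box, was found 1 time each in Ddx4 and Mael, not in Tdrkh or Asz1, and in 7.15% of all promoters. CNGTT, the MYB core, was found in each of the 4 and in 80.29% of all promoters. Matches of different motifs may share bases, and a match is a description of letters. Of the 10 members 9 matched a promoter of the table, and in Piwil1, Piwil4, Tdrd1, Tdrd9 and Mov10l1 the printed window would hold no measured CpG.

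The libraries held 53591172 to 94090975 in total coverage, the sum over all cytosines. The share of coverage on the mitochondrial chromosome (chrM), read at 19 to 33 cytosines, ran from 0.0127% in cadmium mouse 5 to 0.119% in vehicle mouse 13, a range of 9.32-fold. Cadmium libraries averaged 0.0586% ± 0.0252 and vehicle libraries 0.0584% ± 0.0342 (SD, n = 15 each) (p = 0.988, two-sided permutation test of means). The medians lay further apart, at 0.0673% in cadmium and 0.0449% in vehicle libraries. The log2 of the chrM share had r = 0.03 with total coverage and r = 0.05 with the level of the unmethylated control sequence, which read 0.0740% to 0.666% methylated. Regions whose methylation marks sperm were read beside them. At 8 of 13 listed maternal germline differentially methylated regions (DMRs), which are unmethylated in sperm, cadmium libraries averaged 19.5% ± 7.63 with a range of 9.01% to 34.6%, and vehicle libraries 17.3% ± 10.45 with a range of 5.94% to 42.4% (SD, n = 15 each). No library was at 0. At the H19 control region, which sperm carry methylated, 2 CpGs averaged 87.1% ± 9.32 and 88.6% ± 12.8 in the same order. The maternal DMR level was over 25% in 6 libraries, 3 of each group. Those of cadmium mice 9, 10 and 13 had chrM shares of 0.0684%, 0.0673% and 0.0911%. Those of vehicle mice 4, 12 and 13 had 0.0906%, 0.112% and 0.119%. The relations with the chrM share and the differences by treatment were also computed on the 24 others, 12 of each group. This cut was chosen after seeing the data. The level it used moved with member starts (r = 0.793 at Ddx4 and 0.690 at Mael), so the cut is tied to the outcome. Its part in the differences by treatment was not tested.

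Of the 93 CpGs, 57 lay within 1000 bp of the start of their gene, in 6 genes: 21 in Tdrd1, 19 in Ddx4, 7 in Mael, 6 in Tdrkh and 2 each in Tdrd9 and Asz1. The other 36 lay elsewhere in the gene or its flanks: 18 in Tdrd9, 7 in Piwil4, 4 each in Piwil2 and Asz1, 2 in Mov10l1 and 1 in Piwil1. The CpGs near starts had a median level of 24.9% and a median SD of 20.03 points over 30 libraries, and 43 of the 57 averaged 20 to 80%. Those away from starts had a median of 94.7% and a median SD of 9.51 points, and 29 of the 36 averaged over 80%. For all 416876 CpGs the median level was 1.39% and the median SD 3.87 points. The heat map of the 93 CpGs shows the intermediate levels at the starts beside the nearly full methylation of most body CpGs.

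**Figure D1:**
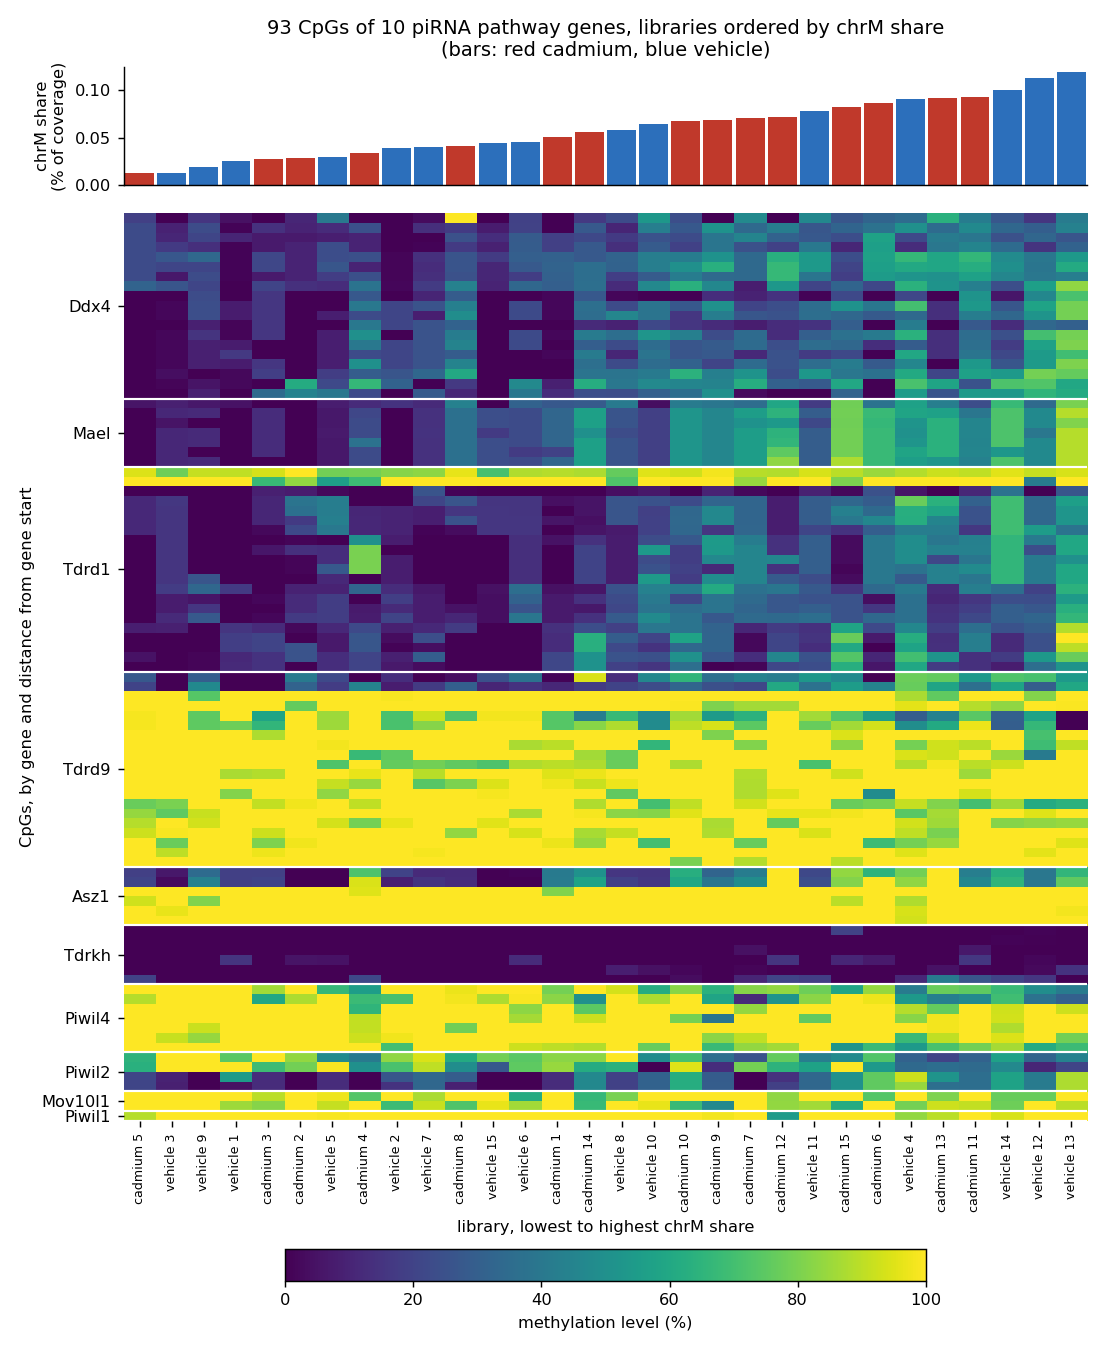
Methylation level (colour, 0 to 100%) of the 93 CpGs (rows, grouped by gene and ordered by distance from the gene start, Piwil2 by position) in 30 libraries (columns, ordered by chrM share of coverage, drawn as bars above in percent, red cadmium and blue vehicle). The starts of Ddx4, Mael and Tdrd1 are darker on the left, where the chrM share is lowest, and lighter on the right, and red and blue libraries are mixed along the axis.

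The first comparison asked whether cadmium changed these levels. The level of a start or gene is the share of methylated reads among all reads at its CpGs. No member differed between groups at an adjusted p under 0.05: 0 of 4 starts with 3 or more CpGs, 0 of 8 gene windows and 0 of 93 single CpGs were called, by a quasi-binomial logistic model with Benjamini-Hochberg adjustment over all features of a kind. The background was 0.0% of 13644 gene starts, 0.0% of 19783 gene windows and 0.00168% of 416876 CpGs. At an unadjusted p under 0.05 stood 0 of the 4 starts (6.02% of all), 1 of the 8 windows (4.67% of all) and 8 of the 93 CpGs (10.3% of all). Limma on the mean percent methylation called no start, window or CpG of a member either.

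Ddx4 (gene at chr13:112598333-112652633, minus strand) encodes the RNA helicase vasa of germ granules. Its 19 CpGs, all within the printed promoter and read 861 to 2538 times in a library, ran from 7.39% to 47.5% with a median of 32.1% in cadmium and from 3.82% to 58.5% with a median of 21.6% in vehicle mice. The ranges overlapped through nearly their whole length, and the vehicle mice spread wider. The means were 27.9% ± 11.3 (SD, n = 15) and 24.7% ± 16.8 (SD, n = 15), a difference of 3.25 points with a 95% interval of -7.53 to 14.0 (adjusted p = 0.994, quasi-binomial model). Without the 6 libraries with a high maternal DMR level the difference was 8.13 points (p = 0.0509, adjusted p = 0.679, quasi-binomial model). Mael (chr1:166201385-166238744, minus strand) encodes Maelstrom, a germ granule protein needed for transposon silencing. Its 7 CpGs, read 219 to 1308 times, ran from 0% to 80% with a median of 45.0% in cadmium and from 0.444% to 86.4% with a median of 20.7% in vehicle mice. Both groups covered nearly the whole range from unmethylated to methylated. The means of 40.8% ± 24.2 and 27.4% ± 25.5 (SD, n = 15 each) differed by 13.4 points, with an interval of -5.16 to 32.0 (adjusted p = 0.90, quasi-binomial model). Without those 6 libraries the Mael difference was 19.3 points (p = 0.0138, adjusted p = 0.581, quasi-binomial model). The libraries were left out by a level that itself moved with both starts, and the part of that choice in the differences was not tested. Without them 0 of 13644 gene starts and 0 of 19783 gene windows were called by treatment. The share of all starts or windows at an unadjusted p under 0.05 is not given for this setting. The unadjusted p-values from it, here and for the genes below, thus have no background, and no effect of cadmium is read from them.

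Members Tdrd1, Tdrd9 and Tdrkh encode Tudor domain proteins, which bind PIWI proteins. Tdrd1 (chr19:56826171-56870012, plus strand) encodes a germ granule scaffold. Of its 21 start CpGs, 19 lay within 500 bp of the start and averaged 6.17% to 26.1% each, and the other two lay at -983 and -811 bp, upstream, and averaged 88.8% and 91.8%. The 19 CpGs together ran from 3.74% to 34.3% with a median of 22.4% in cadmium and from 4.92% to 64.6% with a median of 18.5% in vehicle mice. Of the vehicle mice, 4 stood above the highest cadmium mouse, and the others lay within the cadmium range. The means were 20.02% ± 10.53 and 22.9% ± 17.4 (SD, n = 15 each), a difference of -2.87 points (interval -13.7 to 7.99). With the upstream CpGs, the first of which is read deeply (median 376 reads), the start averaged 35.7% ± 8.59 in cadmium and 37.7% ± 14.0 in vehicle mice (difference -2.08 points, adjusted p = 0.998, quasi-binomial model). That difference was 0.763 points without the 6 libraries with a high maternal DMR level, and did not pass the test in either case.

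Tdrd9 (chr12:111971488-112068854, plus strand) encodes a Tudor protein with a helicase domain. The 2 CpGs near its start ran from 0% to 65.2% with a median of 32.5% in cadmium and from 0% to 77.2% with a median of 21.1% in vehicle mice. The groups overlapped, with means of 33.1% ± 17.1 and 30.1% ± 23.4 (SD, n = 15 each), and 2 CpGs were too few for the test of starts. Tdrkh (chr3:94413243-94434854, plus strand) encodes a Tudor protein of the mitochondrial surface that takes part in trimming piRNA ends. Its 6 CpGs were almost unmethylated, from 0% to 5.71% with a median of 1.57% in cadmium and from 0% to 2.28% with a median of 0.956% in vehicle mice. Of the 30 libraries 10 were at 0, and 5 cadmium mice stood above the highest vehicle mouse. The means were 1.77% ± 1.81 and 1.02% ± 0.876 (SD, n = 15 each), a difference of 0.754 points with an interval of -0.326 to 1.83 (adjusted p = 0.924, quasi-binomial model). At CpGs of 20 reads or more it was 0.371 points (adjusted p = 0.972). Without the 6 libraries with a high maternal DMR level it was 1.09 points (p = 0.0585, adjusted p = 0.691, quasi-binomial model).

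Asz1 (chr6:18050964-18109061, minus strand), which encodes a germ granule scaffold anchored to mitochondria, had the widest gap between group means among the 6 starts. Its 2 start CpGs ran from 0% to 100% with a median of 45.0% in cadmium and from 0% to 80.9% with a median of 17.4% in vehicle mice. In all, 2 cadmium mice were at 100% and 3 libraries at 0. The means were 51.6% ± 31.6 and 26.8% ± 26.3 (SD, n = 15 each), a difference of 24.8 points with an interval of 3.01 to 46.6. This interval weighs each mouse alike, at 24 to 241 reads in a library. It is not adjusted for the choice of the widest gap among 6 starts. The single CpGs did not pass, with p = 0.128 and p = 0.135 and adjusted p = 0.577 and 0.585 (quasi-binomial model). The whole Asz1 window, which adds 4 CpGs of the gene body at 98.4% to 99.8%, averaged 80.5% ± 13.7 in cadmium and 64.6% ± 15.3 in vehicle mice, with p = 0.0443 and adjusted p = 1.00 over all windows (quasi-binomial model). When CpGs read in at least 10 mice of each group were allowed, the start held 11 CpGs, the means were 35.0% ± 19.2 and 30.9% ± 25.01 (SD, n = 15 each), and the difference fell to 4.16 points (adjusted p = 1, quasi-binomial model). Other alternatives went the other way. Without the 6 libraries with a high maternal DMR level the difference at the 2 start CpGs was 30.6 points. That of the window was then 20.2 points (p = 0.00498, adjusted p = 0.50, quasi-binomial model). With replicate number as a block the window had p = 0.00336 (adjusted p = 0.386, quasi-binomial model).

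**Figure D2:**
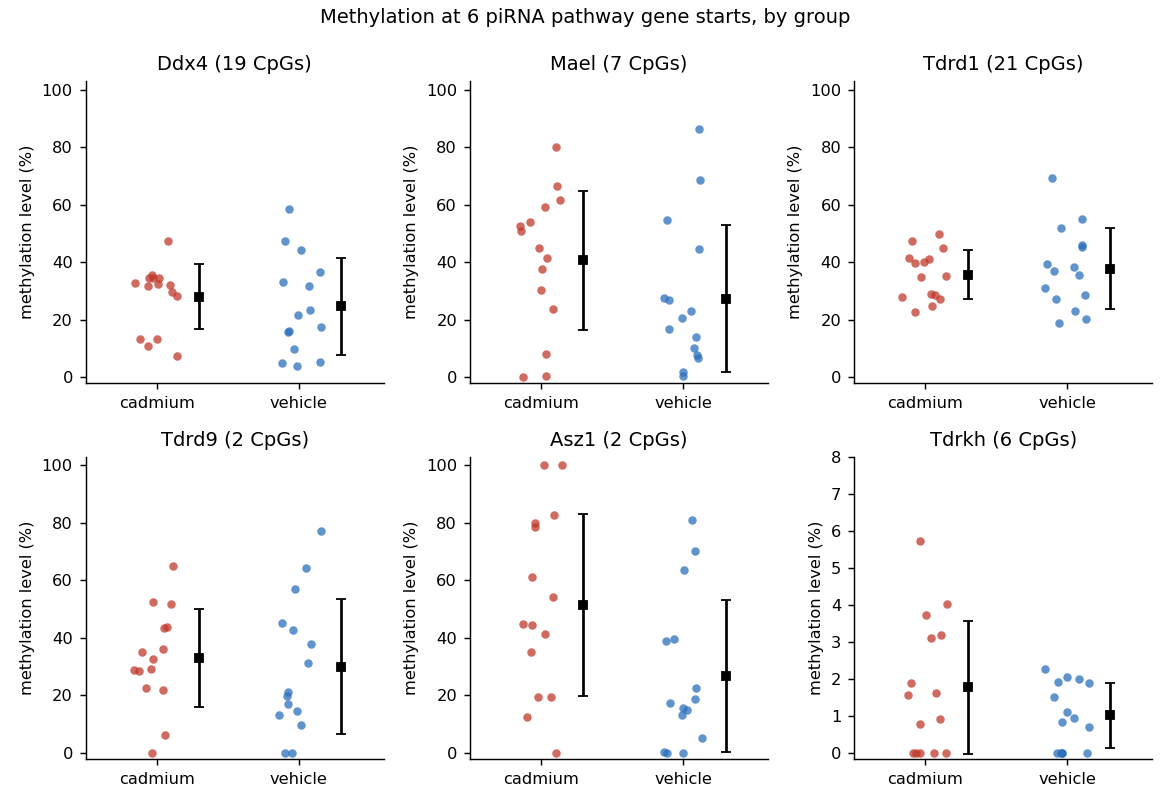
Methylation level in percent at the starts of 6 members in cadmium and vehicle mice, 1 point per library, with the mean and SD over 15 mice as a square and bars beside the points. The Tdrkh axis ends at 8%, the others just above 100%. The groups overlap in each panel, and the widest gap between means is at Asz1 (51.6% and 26.8%).

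The single CpG with the smallest p by treatment did not pass the adjusted threshold in any gene. In Tdrd9 it was chr12:112052149-112052150 in the gene body, at 97.2% ± 6.11 in cadmium and 100% in every vehicle mouse (p = 0.000133, adjusted p = 0.166, quasi-binomial model). In Asz1 it was chr6:18063337-18063338, at 100% in every cadmium mouse and 99.3% ± 1.74 in vehicle mice (p = 0.000631, adjusted p = 0.226, quasi-binomial model). In Tdrkh it was chr3:94413095-94413096, at 0.731% ± 1.98 in cadmium mice and 0% in every vehicle mouse (adjusted p = 0.392, quasi-binomial model). These 3 CpGs share that one group had no spread at all, and their differences ran from -2.79 to 0.75 points. In Tdrd1 the upstream CpG chr19:56825188-56825189 read 91.1% ± 5.29 in cadmium mice against 86.5% ± 7.77 in vehicle mice (adjusted p = 0.451, quasi-binomial model). In Ddx4, chr13:112652376-112652377 stood at 27.5% ± 14.7 and 17.8% ± 10.3 (adjusted p = 0.488, quasi-binomial model). In Mael, chr1:166238761-166238762 stood at 41.3% ± 23.7 and 26.1% ± 25.8 (adjusted p = 0.531, quasi-binomial model). The smallest adjusted p in Piwil1, Piwil2, Piwil4 and Mov10l1 lay between 0.536 and 1.00. The plot of single CpGs by distance shows levels that can differ between close neighbours: in Ddx4, chr13:112652348-112652349 averaged 13.1% and chr13:112652351-112652352 averaged 32.1%. Adjacent CpGs are often read on the same fragments, so they are not separate measurements.

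**Figure D3:**
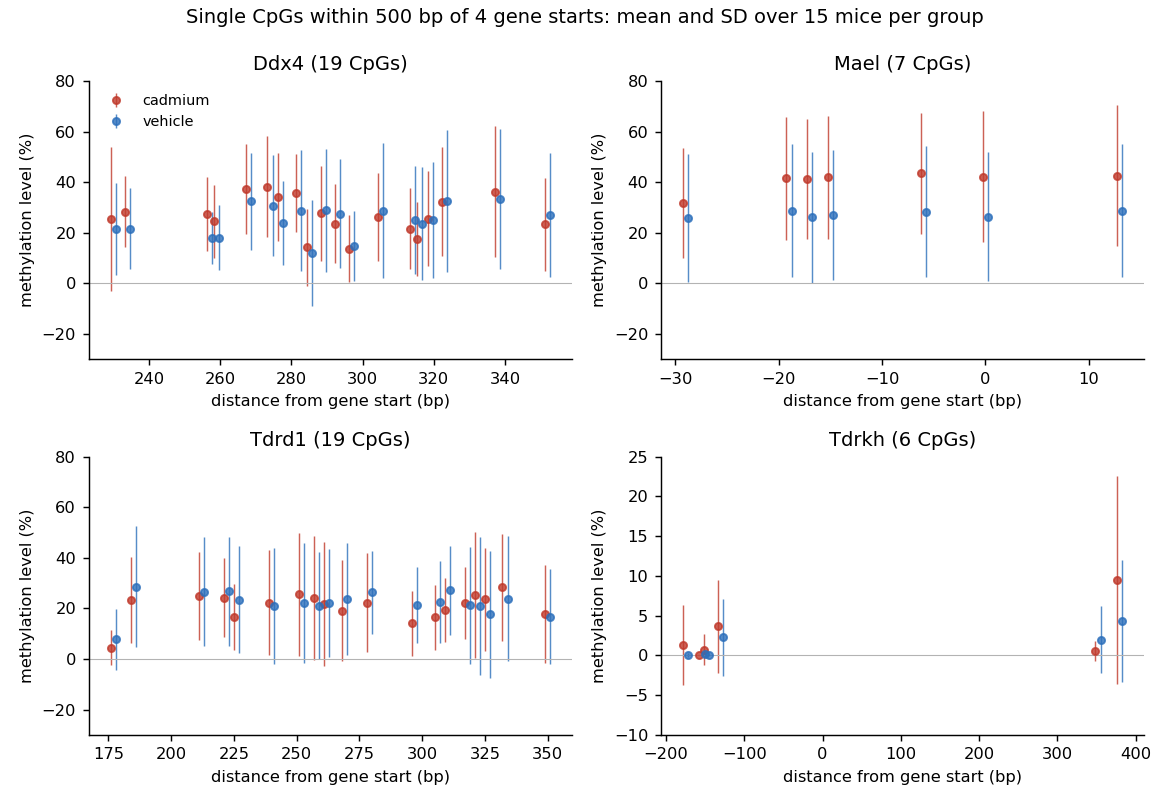
Mean methylation level in percent (points) and SD over 15 mice (bars) of single CpGs within 500 bp of the starts of Ddx4, Mael, Tdrd1 and Tdrkh, against distance from the gene start in bp (positive into the gene), for cadmium (red) and vehicle (blue) mice. The bars of the groups overlap at every CpG shown, and bars can run below 0 because they are drawn as the mean minus the SD. The Tdrkh axis is expanded. Ddx4 distances count from the gene end at chr13:112652633. The transcript start of its printed promoter, chr13:112652310, lies among the plotted Ddx4 CpGs.

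The second comparison set the same levels against the chrM share. The starts of Ddx4, Mael and Tdrd1 rose with it and Tdrkh did not pass the test, so 3 of 4 tested starts were called, all higher. The background was 9.29% of all 13644 starts in either direction, 7.04% higher and 2.24% lower. Most starts are almost unmethylated, and among the 687 starts that average 20 to 80%, as Ddx4, Mael and Tdrd1 do, 50.2% were called higher and 22.9% lower. That class is the nearer background for them, and nothing particular to these genes is read from the 3 calls. Among the 12688 starts under 20%, as Tdrkh is, 4.84% were called higher. Relations of this kind were computed for 34 distinct stretches of the members.

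In the 5 libraries with the lowest chrM share, the Ddx4 start read 3.82% to 17.4%, and in the 5 with the highest it read 33.0% to 58.5%. The 2 sets did not overlap. Over all 30 libraries r was 0.793 and rho 0.818 (p = 1e-05 each, the smallest that 100000 permutations can give), and the level rose by 12.9 ± 1.87 points (SE) per doubling of the chrM share (adjusted p = 4.5e-06, quasi-binomial model). Within the cadmium group r was 0.780 and within the vehicle group 0.808, and without the 2 libraries farthest from the median log2 share, cadmium mouse 5 and vehicle mouse 3, it was 0.806. At Mael the lowest 5 libraries read 0.282% to 10.0% and the highest 5 read 41.4% to 86.4%, again without overlap. Here r was 0.816 and rho 0.864 (p = 1e-05 each by permutation), with a slope of 23.7 ± 3.18 points per doubling (adjusted p = 2.3e-06, quasi-binomial model). Within the groups r was 0.871 and 0.804, and without the 2 farthest libraries 0.835. At the 19 Tdrd1 CpGs within 500 bp the lowest 5 libraries read 3.74% to 10.6% and the highest 5 read 28.7% to 64.6%. For these r was 0.767 and rho 0.831 (p = 1e-05 each by permutation), r was 0.795 among cadmium mice and 0.785 among vehicle mice, and the slope was 12.5 ± 1.98 points. The Tdrd1 start with its upstream CpGs had r = 0.737 and a slope of 9.70 ± 1.68 points (adjusted p = 7.1e-05, quasi-binomial model).

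The 2 start CpGs of Tdrd9 and of Asz1 were each called higher on their own. Tdrd9 read 0% to 38.0% in the 5 libraries of lowest and 42.7% to 65.2% in those of highest chrM share, with r = 0.683 and rho = 0.742 (p = 4e-05 and 3e-05 by permutation) and a slope of 15.8 ± 3.19 points. Asz1 read 5.17% to 39.0% and 39.7% to 100%, with r = 0.582 and rho = 0.637 (p = 0.00071 and 0.00019 by permutation) and a slope of 20.9 ± 5.51 points. With CpGs read in at least 10 mice of each group, 7 members had a start to test and 6 rose, where 14.6% of all 17672 starts were called in either direction. That share covers starts of every level, most of them almost unmethylated. A share for starts averaging 20 to 80%, the nearer background, is not given for this setting, and in the main fits 50.2% of that class were called higher. Those that rose were Asz1 by 17.96 points over 11 CpGs (adjusted p = 3.8e-05), Tdrd9 by 16.9 points over 5 CpGs (adjusted p = 0.00036) and Mov10l1 by 11.3 points over 6 CpGs (adjusted p = 0.036, quasi-binomial model), beside the 3 named above. Mov10l1 encodes an RNA helicase that starts piRNA precursor processing, and these 6 CpGs, 549 to 772 bp into the gene, averaged 27.2% ± 23.6 in cadmium and 19.3% ± 20.5 in vehicle mice (SD, n = 15 each). Tdrkh read 0% to 1.90% in the 5 lowest and 1.89% to 5.71% in the 5 highest libraries. It had r = 0.442 and rho = 0.558 (p = 0.014 and 0.0016 by permutation), and its adjusted p over all starts was 0.0896 (quasi-binomial model).

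**Figure D4:**
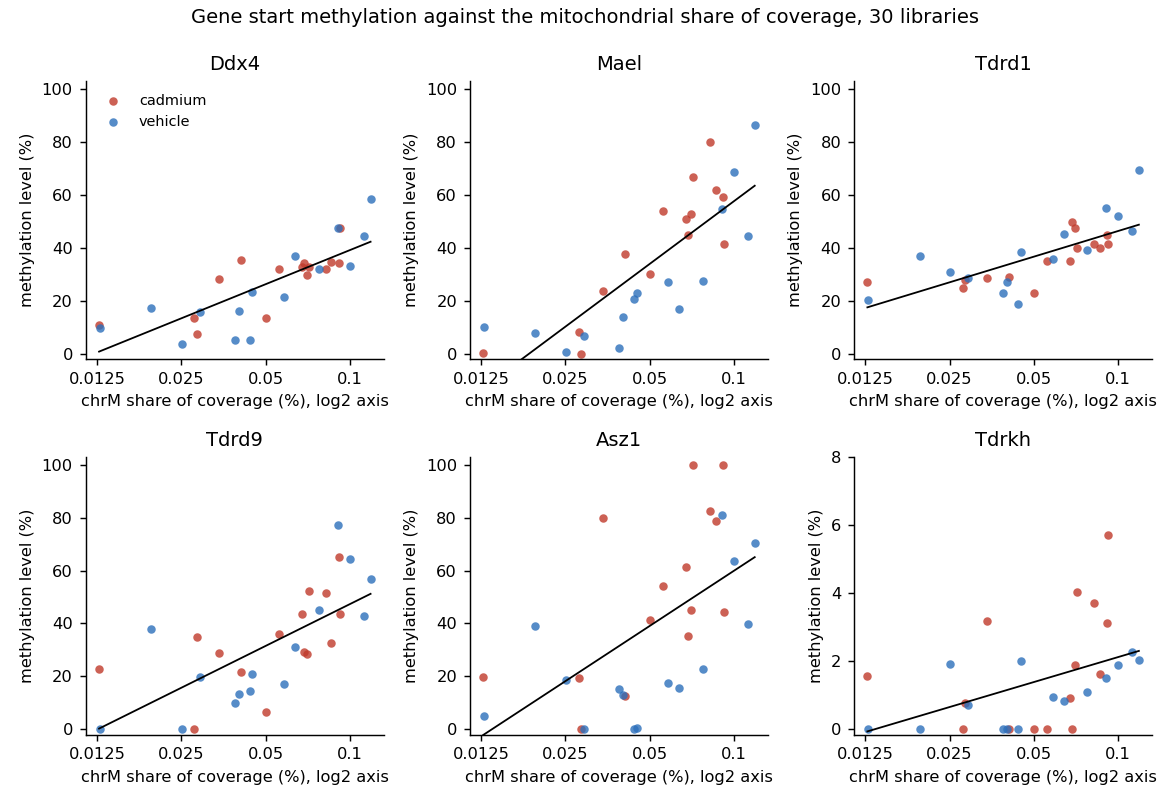
Methylation level in percent at the starts of 6 members against the chrM share of coverage in percent on a log2 axis, 1 point per library (red cadmium, blue vehicle), with a least-squares line over the 30 libraries. The points of both groups follow one line in each of the Ddx4, Mael and Tdrd1 panels (r = 0.793, 0.816 and 0.737). The Tdrkh axis ends at 8%, and the lines of Mael and Asz1 are cut at 0.

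No difference of this relation between the groups was detected at the tested starts: the interaction of treatment and chrM share was called at 0 of 4 members (unadjusted p of 0.342 to 0.979 by the quasi-binomial model) and at 0.125% of all starts. The maternal DMR level moved with the chrM share (r = 0.733) and with the starts of Ddx4 (r = 0.793), Mael (0.690), Tdrd1 (0.828), Tdrd9 (0.729), Asz1 (0.645) and Tdrkh (0.316). For Tdrd1 this value is of the 19 CpGs within 500 bp. The H19 region, read at 2 CpGs, moved the other way, with r = -0.506 against the chrM share and -0.601 against Ddx4. The mean over all CpGs had r = -0.09 against the chrM share. The part of these markers in the result was not tested. On the 24 libraries with a maternal DMR level of 25% or less, the same 3 starts were called, where 4.71% of all starts were, with r = 0.725 at Ddx4, 0.780 at Mael and 0.684 at Tdrd1. In these libraries the start CpGs of Tdrd9 had r = 0.611, those of Asz1 0.509 and those of Tdrkh 0.446.

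Single CpGs showed where in the genes the relation lay. Of the 93 CpGs, 48 were called higher and 8 lower with the chrM share, against 6.96% and 6.92% of all CpGs (13.9% together). Within starts 46 of 57 were called, all higher: 16 of 19 in Ddx4, 7 of 7 in Mael, 18 of 21 in Tdrd1, 2 of 2 in Tdrd9 and Asz1, and 1 of 6 in Tdrkh. Away from starts 2 of 36 were called higher and 8 lower. The 2 called higher are both in Piwil2, whose transcript start was not given. Among CpGs averaging 20 to 80%, 44 of 50 in the members were called higher and 5 lower, against 30.5% and 27.6% of all CpGs of that class. Among CpGs over 80%, 3 of 31 were called lower, against 8.9%. On the 24 libraries named above, 28 of the 93 were called in place of 56, and 8.35% of all CpGs in place of 13.9%. The CpG with the smallest p was chr1:166238761-166238762 in Mael (r = 0.836, 24.5 ± 3.04 points per doubling). In Ddx4 it was chr13:112652356-112652357 (r = 0.713, 14.3 ± 2.66 points), in Tdrd1 chr19:56826504-56826505 (r = 0.625, 16.3 ± 3.86 points) and in Asz1 chr6:18109055-18109056 (r = 0.583, 20.1 ± 5.31 points). In Tdrkh it was chr3:94413595-94413596, which averaged 1.27% over the 30 libraries and had r = 0.380.

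The 3 PIWI genes had no CpG that met the coverage rule within 1000 bp of a gene start, and their measured CpGs lay between the gene ends. For Piwil2 neither strand nor transcript start was given, so both gene ends were searched. Whether its CpGs lie near a transcript start inside the gene is not known. Piwil4 (chr9:14701776-14740672, minus strand) encodes the nuclear PIWI protein MIWI2 of fetal germ cells. Its 7 CpGs lay in the last part of the gene, and 2 of them also lie within the lncRNA gene Gm10706. They ran from 70.0% to 98.7% with a median of 91.0% in cadmium and from 68.9% to 100% with a median of 95.3% in vehicle mice. The groups overlapped, with means of 89.2% ± 8.06 and 90.7% ± 10.6 (SD, n = 15 each). The level fell with the chrM share, from 95.7% to 100% in the 5 lowest libraries to 69.5% to 88.6% in the 5 highest. Over all libraries r was -0.656 and rho -0.767 (p = 0.00013 and 2e-05 by permutation), with -6.98 ± 1.52 points per doubling (adjusted p = 5.2e-05, quasi-binomial model). On the 24 libraries of low maternal DMR level the slope was -3.97 points (adjusted p = 0.0112) and the difference by treatment -4.37 points in place of -1.58 (p = 0.0431, adjusted p = 0.655, quasi-binomial model). On their own 3 of the 7 CpGs were called lower, at chr9:14703137-14703138, chr9:14706461-14706462 and chr9:14706523-14706524. The 4 within chr9:14703267-14703294 averaged 95.6% ± 6.05 in cadmium mice against 96.3% ± 5.19 in vehicle mice and had r = -0.258.

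Piwil2 (chr14:70372477-70436898) encodes MILI, a PIWI protein of fetal and adult germ cells. Its 4 CpGs form 2 pairs that went opposite ways. The pair within chr14:70374262-70374340, near the gene end of lower coordinate, read 64.4% to 100% in the 5 libraries of lowest and 23.7% to 54.5% in those of highest chrM share (r = -0.642, rho = -0.644, p = 0.0001 and 0.00021 by permutation). The pair within chr14:70429546-70429559, toward the other end, beyond which lies Polr3d, read 0% to 29.5% and 36.0% to 87.5% in the same order (r = 0.634, rho = 0.674, p = 0.00017 and 7e-05 by permutation). All 4 CpGs were called on their own, and the whole window, which sums them, was not (r = 0.121, adjusted p = 0.723, quasi-binomial model). By treatment the pairs averaged 59.4% ± 20.2 against 63.6% ± 28.2 and 28.5% ± 23.5 against 30.9% ± 28.4 (cadmium first, SD, n = 15 each), with overlapping ranges. Piwil1 (chr5:128736071-128755474, plus strand), the gene of the adult PIWI protein MIWI, had 1 CpG, in the gene body. It read 95.4% ± 11.8 in cadmium mice against 98.5% ± 4.35 in vehicle mice and had r = -0.131 with the chrM share.

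Other body CpGs were mostly methylated. The 18 of Tdrd9 away from its start averaged 93.6% ± 2.90 in cadmium and 92.8% ± 4.82 in vehicle mice (SD, n = 15 each). With the chrM share they had r = -0.611 and rho = -0.648 (p = 0.00037 and 0.00023 by permutation), and 3 of 18 were called lower on their own. The lowest of them, chr12:111990381-111990382, averaged 71.3% and had r = -0.629. The 4 of Asz1 averaged 99.3% ± 1.38 and 99.2% ± 1.91, with r = 0.117. The 2 of Mov10l1 (chr15:88982891-89055152, plus strand) averaged 87.1% ± 10.8 and 90.5% ± 7.71, with r = -0.326. As whole windows, 5 of 8 members were called against the chrM share: Ddx4, Mael, Tdrd1 and Tdrkh (adjusted p = 0.0378) higher and Piwil4 lower, by the quasi-binomial model. The background was 27.6% of all windows, 11.1% higher and 16.5% lower. Asz1 (adjusted p = 0.0505), Tdrd9 (0.363) and Piwil2 (0.723) did not pass, and in Tdrd9 and Piwil2 the window sums stretches of opposite slope. The Tdrkh call was lost at 20 reads or more (adjusted p = 0.0915), in the 24 libraries of low maternal DMR level (adjusted p = 0.0943) and without vehicle mice 12 and 13 (adjusted p = 0.0658). In those 24 libraries 4 of 8 members were called, against 13.6% of all windows.

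Compared with other gene starts, those of Ddx4, Mael and Tdrd1 were both more methylated and more variable. Their mean levels of 26.3%, 34.1% and 36.7% were above those of 93.9%, 95.1% and 95.4% of the 13644 starts, whose median was 0.665%. Their SDs over 30 libraries of 14.2, 25.3 and 11.5 points were above those of 96.3%, 99.7% and 95.03% of starts. Most of those starts are almost unmethylated. SDs were not ranked among the 687 starts averaging 20 to 80%, so more variable is not read apart from level. Tdrkh, at 1.39%, was above 77.7% of starts in level and 73.8% in SD. The plot of level against r places the first 3 among starts of intermediate level that have high r.

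**Figure D5:**
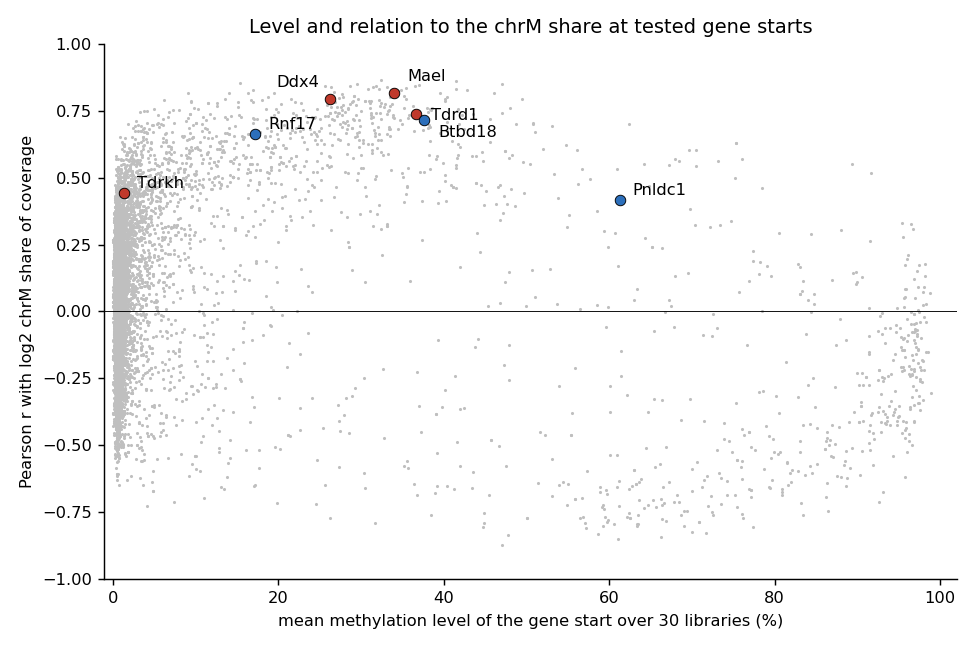
Pearson r between gene start level and log2 chrM share over 30 libraries, against the mean level of the start in percent, for all 13644 tested starts (grey), 4 members (red) and 3 other piRNA pathway genes (blue). Starts of 20 to 40% lie mostly at high r and starts of 60 to 90% mostly at negative r, and Ddx4, Mael, Tdrd1 and Btbd18 lie within the first group.

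The starts moved together across libraries. For Tdrd1 the pairs used the 19 CpGs within 500 bp. Among the 10 pairs of Ddx4, Mael, Tdrd1, Tdrd9 and Asz1, r between levels ran from 0.555 to 0.867, from 0.516 to 0.756 in cadmium and from 0.755 to 0.956 in vehicle mice, and the highest pair was Ddx4 with Tdrd1. The 5 pairs with Tdrkh ran from 0.424 to 0.580. These are values over the same 30 libraries, which share their chrM share and depth, and they are given as a description. Of 13625 other starts, those most like the mean of the 4 tested members over the 30 libraries were Gm13261 (r = 0.912), Gm30145 (0.906), Pabpc6 (0.899), 2410003I16Rik (0.898) and Tex14 (0.892). They averaged 27.4% to 41.5% and had r of 0.798 to 0.848 with the chrM share, and none differed by treatment (adjusted p of 0.969 to 0.994, quasi-binomial model).

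Other genes of the pathway came from a list of 19, of which 18 were in the annotation and 9 had a start to test. Against the chrM share 2 of 9 starts were called, both higher, where 7.04% of all starts were, and by treatment 0 of 9, where 0.0% were. Of the 2, Btbd18 averaged 37.6% over the 30 libraries, in the class of 20 to 80% where 50.2% were called higher. Rnf17 averaged 17.3%, in the class under 20% where 4.84% were. Btbd18, which encodes a regulator of pachytene piRNA transcription, averaged 40.2% ± 19.3 in cadmium and 35.0% ± 24.1 in vehicle mice (SD, n = 15 each), with r = 0.714 and 17.7 ± 3.28 points per doubling (adjusted p = 0.00016, quasi-binomial model). Rnf17, which encodes a Tudor protein of germ granules, averaged 18.2% ± 13.6 and 16.3% ± 13.3, with r = 0.663 and 10.1 ± 2.15 points (adjusted p = 0.0002, quasi-binomial model). Pnldc1, which encodes the piRNA trimming enzyme, averaged 61.3% in both groups and did not pass (adjusted p = 0.134, quasi-binomial model). The other 6 starts (Mybl1, Tdrd5, Exd1, Spocd1, Tex15 and Ddx25) averaged 0.479% to 1.11%. By treatment the smallest p were 0.0581 at Exd1, 0.189 at Mybl1 and 0.271 at Ddx25, all with adjusted p of 0.829 or more (quasi-binomial model). As windows, 4 of 15 rose and 2 fell with the chrM share, against 11.1% and 16.5% of all windows, and 0 of 15 differed by treatment, against 0.0%. The broadly expressed partners Prmt5, Wdr77 and Hsp90aa1 averaged under 0.491% at their starts, and 0 of 3 were called in either comparison. The median slope over the 9 starts was 0.105 points per doubling, over the 4 members 11.3 and over all starts 0.031. The median levels were 0.754%, 30.2% and 0.665% in the same order. The slopes are thus not compared at a like level, and nothing particular to the members is read from them.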

How the data were processed

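Per the file layout and the labels, the deposited tables give for each cytosine of a CpG and strand a coverage count and the fraction of reads that was methylated, 1 file per mouse. Tools named in the submitters' processing notes are Bismark 0.22.3, methylKit 1.12.0, Trim Galore 0.5.0 and bcl2fastq, with mm10 and GRCm38 as builds; their roles are not given in the sources used here. Methylated reads were taken as the fraction times the deposited count, a product within 0.1 of a whole number except at 1 cytosine at most in any library. Files hold positions with 1 read or more.

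Strands were summed, and CpGs with 10 or more reads in all 30 files were kept. Features were gene starts (1000 bp either side of the RefSeq 5′ end, or of the end with more CpGs where the tables give no strand), gene windows (2000 bp beyond both ends) and single CpGs on the autosomes and X, and starts and windows needed 3 CpGs. RefSeq gives 34328 genes, 26794 with strand, and no exons. Methylated and unmethylated reads were fitted with a quasi-binomial logistic model (Pearson dispersion never below 1, F test) on treatment, on log2 of the chrM percent of coverage, or on both with their product, and p-values were adjusted over all features of a kind, with calls at an adjusted p under 0.05. The fit was tested on simulated reads of gene starts only, so the p-values of windows and single CpGs were not covered. Group values are unweighted means over mice, intervals of differences are at 95%, slopes are least-squares fits of the level, and correlations carry two-sided permutation p-values (100000 resamples). Alternatives were limma 3.58.1, other coverage limits and windows, covariates and libraries left out. Python 3.11.15, numpy 2.4.6, scipy 1.17.1, pandas 2.3.3 and R 4.3.3 were used.

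The members and gene lists were chosen with earlier results of these data known, among them that methylation at genes of germ cells follows the maternal DMR level and the chrM share, so those relations are no independent support. All 10 members are named, as are the 3 other pathway genes of smallest start p in each comparison and the 5 most alike starts. The CpG of smallest p is given for Ddx4, Mael, Tdrd1, Tdrkh and Asz1 in both comparisons, and for Tdrd9 by treatment. It is not picked out for the other members. The main fits did not treat mice of the same replicate number as pairs. Reads without molecular identifiers can be PCR copies, and 1 read spans several CpGs, so read numbers exceed DNA molecules.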

Additional observations from a re-analysis of the deposited data

How the results depend on the processing

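Over the alternatives, no start or window of a member was called by treatment in any of 101 fits. Single CpGs by treatment gave 7 calls among the 93 with a replicate block, where 15.5% of all CpGs were called, and 3 with the log2 chrM share as covariate, where 4.94% were. Against the chrM share, 6 of 7 starts were called with 10 or more mice of each group (14.6% of all), 3 of 5 windows at 20 reads or more (24.2%), 3 of 8 windows with the replicate block (7.76%), and of 93 CpGs 27 with the block (22.7%) and 28 without the libraries over 25% at the maternal germline DMRs (8.35%), an alternative chosen after seeing the data. The block also ended the window calls of Tdrkh (adjusted p = 0.949) and Tdrd1 (0.0707). Ddx4 and Mael starts were called in 12 of 12 alternatives, Tdrd1 in 11 of 12 (adjusted p = 0.11 with the block) and Tdrkh in 1 of 12. Differences that turned sign, none past the threshold, were Piwil2 by treatment with 10 or more mice of each group (2.437 points), Piwil2 against the chrM share at 5 reads or more (-0.8678 points per doubling), and the Tdrd1 start and window by treatment without the libraries of high maternal DMR level (0.7626 points); the cause was not tested. The 2 libraries farthest from the median were cadmium 5 and vehicle 3 on the log2 scale, used for r, and vehicle 12 and 13 on the linear scale, used for the fits. Same-numbered mice correlated above 0.1 in 9 of 15 pairs (-0.378 to 0.831) over 687 starts, and 2 of 15 mice correlated best with their own number. Depth limits the members to CpGs read in every mouse, so 4 of 10 starts could be tested.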
